A study of Homo sapiens with 47 samples.

Results

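The subunits of oxidative phosphorylation were followed through the differentiation of human embryonic stem cells (hESCs) to neuromesodermal progenitor (NMP)-like cells, and on to pre-neural progenitor (PNP) and neural crest (NC) cultures. They were chosen by gene symbol: protein-coding genes named as subunits of respiratory complexes I to IV or of ATP synthase (complex V), plus the 13 protein genes of the mitochondrial genome. This gave 98 of 58051 listed genes, 85 in the nuclear genome and 13 in the mitochondrial genome. Of the nuclear genes, 37 belonged to complex I, 4 to complex II, 9 to complex III, 17 to complex IV and 18 to complex V. Of the mitochondrial genes, 7 belonged to complex I, 1 to complex III, 3 to complex IV and 2 to complex V. *NDUFA4* was placed in complex I by its name, although its protein is now regarded as a complex IV subunit.

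Complexes I to IV sit in the inner mitochondrial membrane and pass electrons from NADH and succinate to oxygen. Complexes I, III and IV pump protons as they do so, and complex V lets the protons flow back to make ATP. Apart from complex II, each complex is assembled from subunits of both genomes: the mitochondrial genome is transcribed as long polycistronic RNAs that are cut into single messages inside the organelle, whereas each nuclear subunit has its own promoter and its protein is imported. Pluripotent stem cells are known for relying strongly on glycolysis, and differentiation is often accompanied by a change in mitochondrial activity.

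All libraries came from WA09 (H9), an hESC line, in 3 independent differentiations. The t0 cultures were hESCs in mTESR1 on Matrigel. NMP-like cells were obtained after 36 h in N2B27 without vitamin A, with CHIR-99021 (a WNT pathway activator), rhFGF2, AGN193109 (an inverse agonist of retinoic acid receptors) and Y-27632. The cells were then replated in that medium and carried through passages P1 to P10, so that every group after t0 shared these agents. At P5 and P8 additional cultures were split by selective detachment with TrypLE into a mesenchymal fraction enriched for NC (MES) and an epithelial fraction enriched for PNP (EPI). Each time point and fraction had 3 libraries, 1 per differentiation, except P9, for which differentiations 1 and 2 were used and the third was not analysed here. This made 35 whole-culture libraries over 12 time points and 12 fraction libraries.

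Poly(A) RNA was sequenced, and libraries held between 13029491 and 64082859 expected counts (median 47292229). Levels are given in TPM, in which counts are corrected for transcript length and scaled to the same total in every library. Changes were tested with edgeR's quasi-likelihood test on expected counts, with the differentiation as a block, and a gene is said to be called, to rise or to fall at a Benjamini-Hochberg adjusted p under 0.05 over all genes tested. Fold changes are on the log2 scale with their standard error (SE), and log2 changes within 1 differentiation are ratios of normalized counts, that is, counts corrected for library size. In bulk cultures, fewer cells of a type and less RNA per cell cannot be told apart.

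The labels were checked with marker genes, and the differentiations did not keep step. Differentiation 1 stood apart at 36 h, from P1 to P4, at P8 and at P10, in different markers. At 36 h *POU5F1*, a pluripotency factor, was at 1504, 1050 and 593 TPM in differentiations 1, 2 and 3, and *TBXT*, a mesodermal factor that marks NMPs, was at 62.3, 477 and 493 TPM. At P1 *POU5F1* remained at 863 TPM in differentiation 1, against 18.7 and 5.1 TPM, and at P2 it was at 23.7, 0.39 and 0.51 TPM. *TBXT* at P2 was at 145, 30.5 and 6.3 TPM. *TWIST1*, an NC and mesenchymal factor, was at 4.1, 157 and 214 TPM at P3 and at 33.6, 198 and 279 TPM at P4. In the whole cultures of P8 *TWIST1* was at 18.6, 90.8 and 131 TPM, and *SOX2*, a neural progenitor factor, was at 320, 132 and 100 TPM. The library labelled P10 of differentiation 1 had *SOX2* at 214 TPM, against 0.5 and 0.7 TPM in the others. It did not continue from the P9 library of the same differentiation, in which *SOX2* was at 4.9 TPM and *TWIST1* at 460 TPM, against 66.4 TPM for *TWIST1* at P10. From these values a different course of differentiation 1 and a label that does not match its library cannot be told apart. By principal components the paper placed P1 of differentiation 1 with the 36 h libraries, and its P10 with libraries of P4 to P8. The paper describes some outlying libraries as likely biological variation. In the fractions, the summed level of 7 NC markers was 72.1 to 284 TPM in P5 EPI and 442 to 640 TPM in P5 MES. At P8 it overlapped between differentiations, with 80.7 to 673 TPM in EPI and 246 to 980 TPM in MES. Within the P8 pairs *TWIST1* was higher in MES, at 9.9, 77.4 and 257 TPM in EPI and 75.6, 170 and 376 TPM in MES. *SOX2* was lower in MES, at 301, 143 and 105 TPM in EPI and 191, 90.4 and 30.3 TPM in MES. Differentiation 3 was higher than the others in some NC markers: *TWIST1* was at 35.3, 45.6 and 210 TPM at P7, and *SOX10* at 0.78, 1.23 and 15.2 TPM at P8. Results for the subunit genes that rest on differentiation 1, the group of P9 and P10 among them, are given with and without it. Related lists of genes are given from the fit of all differentiations only.

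Nearly every subunit gene was expressed. The mean level over the 47 libraries was above 100 TPM for 53 of the 85 nuclear genes, between 10 and 100 TPM for 24 and under 10 TPM for 8. The highest nuclear levels were those of *ATP5F1B* (803 TPM) and *ATP5F1A* (556 TPM), the catalytic beta and alpha subunits of ATP synthase, and *COX7C* (593 TPM), a small subunit of cytochrome c oxidase. All 13 mitochondrial genes lay higher than most nuclear ones. *MT-CO3*, *MT-ATP6*, *MT-CO1* and *MT-CO2*, which encode cytochrome c oxidase subunits and the proton channel of ATP synthase, had means of 8353, 7942, 7896 and 6015 TPM. *MT-ATP8*, *MT-ND4*, *MT-ND1*, *MT-CYB* and *MT-ND2* followed at 5600, 5183, 4603, 3620 and 3564 TPM, and *MT-ND4L*, *MT-ND3* and *MT-ND5* at 2527, 2400 and 1883 TPM. *MT-ND6*, the only one of the 13 encoded on the light strand, was lowest at 364 TPM. *MT-ND6* messages are known to lack the poly(A) tail that the libraries select for, and the part of this in its level was not tested.

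Where a complex IV subunit has a ubiquitous and a tissue-restricted form, the cultures expressed the ubiquitous one. *COX4I1* had a mean of 402 TPM, whereas *COX4I2*, its hypoxia-responsive form, stayed at or below 0.24 TPM in every library. *COX6A1* (291 TPM), *COX7A2* (315 TPM), *COX7B* (130 TPM) and *COX8A* (261 TPM) were accompanied by at most 0.21 TPM of the muscle form *COX6A2*, 0.18 TPM of the muscle form *COX7A1*, 0.15 TPM of *COX7B2* and 0.40 TPM of *COX8C*. The summed level of 5 markers of heart and skeletal muscle did not exceed 27.7 TPM. These 5 restricted subunit genes and *ATP5MGL* (at most 0.25 TPM) had no more than 6 counts in any library and could not be tested. *COX6B1* was at 327 TPM, and its testis form *COX6B2* was detected mainly at t0. *COX7A2L*, a supercomplex assembly factor related to *COX7A2*, was at 114 TPM. The 3 genes for the c subunit of the ATP synthase rotor were all expressed, *ATP5MC1* at 91.4 TPM, *ATP5MC2* at 356 TPM and *ATP5MC3* at 342 TPM. *NDUFA4L2*, a hypoxia-induced relative of *NDUFA4* (392 TPM) that the symbol rule leaves out, did not exceed 4.1 TPM.

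Promoters are shown for the 6 nuclear genes that moved most between 36 h and P5, the 3 that fell most and the 3 that rose most among called genes with a single start in the RefSeq table (build GRCh38.p14). *COX6B2*, nearly absent at P5, and *UQCRHL*, a near-identical copy of *UQCRH*, were passed over. Each sequence is the 250 bases before the transcription start, written 5′ to 3′ on the strand of the gene, and capitals mark matches to the motifs described below. *ATP5PD*, *SDHD* and *UQCRH* encode a stalk subunit of ATP synthase, a membrane anchor of succinate dehydrogenase and the hinge protein of complex III. *NDUFA9* and *NDUFA6* encode accessory subunits of complex I, and *ATP5F1E* encodes the epsilon subunit of ATP synthase.
ATP5PD, fell, chr17:75046970-75047219, minus strand: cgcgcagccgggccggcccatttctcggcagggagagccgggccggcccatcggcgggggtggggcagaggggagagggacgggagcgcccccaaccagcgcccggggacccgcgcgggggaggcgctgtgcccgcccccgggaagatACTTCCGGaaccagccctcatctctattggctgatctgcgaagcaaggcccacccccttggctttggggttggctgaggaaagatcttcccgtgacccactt
SDHD, fell, chr11:112086623-112086872, plus strand: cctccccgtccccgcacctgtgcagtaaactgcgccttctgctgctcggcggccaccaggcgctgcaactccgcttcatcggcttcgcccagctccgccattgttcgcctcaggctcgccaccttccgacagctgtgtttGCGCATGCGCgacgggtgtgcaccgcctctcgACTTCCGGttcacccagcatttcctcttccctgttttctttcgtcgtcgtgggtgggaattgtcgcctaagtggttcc
UQCRH, fell, chr1:46303448-46303697, plus strand: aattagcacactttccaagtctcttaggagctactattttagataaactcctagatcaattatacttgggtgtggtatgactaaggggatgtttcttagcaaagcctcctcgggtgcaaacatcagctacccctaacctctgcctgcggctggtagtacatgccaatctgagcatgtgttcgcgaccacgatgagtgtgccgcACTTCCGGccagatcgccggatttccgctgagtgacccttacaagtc
NDUFA9, rose, chr12:4648864-4649113, plus strand: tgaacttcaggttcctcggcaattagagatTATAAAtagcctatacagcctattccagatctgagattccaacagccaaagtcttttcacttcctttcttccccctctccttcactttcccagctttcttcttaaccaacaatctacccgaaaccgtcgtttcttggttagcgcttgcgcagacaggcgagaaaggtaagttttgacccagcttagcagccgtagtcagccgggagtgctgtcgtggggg
ATP5F1E, rose, chr20:59032336-59032585, minus strand: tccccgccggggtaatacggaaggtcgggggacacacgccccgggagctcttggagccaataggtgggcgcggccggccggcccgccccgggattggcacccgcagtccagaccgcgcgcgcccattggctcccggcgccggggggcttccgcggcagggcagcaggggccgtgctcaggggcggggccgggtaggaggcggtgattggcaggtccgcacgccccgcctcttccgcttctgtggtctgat
NDUFA6, rose, chr22:42090773-42091022, minus strand: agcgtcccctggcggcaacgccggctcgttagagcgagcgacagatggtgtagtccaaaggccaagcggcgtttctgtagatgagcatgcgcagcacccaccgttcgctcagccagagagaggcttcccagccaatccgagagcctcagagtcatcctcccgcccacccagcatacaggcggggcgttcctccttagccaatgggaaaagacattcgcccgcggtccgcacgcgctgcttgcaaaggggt

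The motifs were searched on both strands in windows of 300 bases, 250 before and 50 after the start, and 68 of the 85 nuclear genes matched the table with 81 windows. The letters GCGCATGCG, which fit the site of the nuclear respiratory factor NRF1, were found in 11 windows (13.6%), against 1.92% of all 35116 windows and 2.36% of the 22199 windows of protein-coding genes. CCGGAAGT, which fits ETS family factors such as GABPA (also called NRF2), was found in 12 windows (14.8%), against 4.14% of all and 5.34% of protein-coding windows. AAGATGGCG, which fits YY1, was found in 10 windows of 9 genes (12.3%), against 1.75% of all and 2.41% of protein-coding windows. TATAAA was found in 7 windows (8.64%), against 11.5% of all and 9.47% of protein-coding windows. Of the 6 printed promoters, the 3 genes that fell carried the ETS letters, read as ACTTCCGG on the strand shown. The 12 windows with these letters also included genes not called between 36 h and P5, such as *NDUFS1*. Whether the letters go with the direction of change was not tested. *SDHD* also carried the NRF1 letters on both strands, overlapping in GCGCATGCGC. *NDUFA9* carried TATAAA 220 bases before its start, and *ATP5F1E* and *NDUFA6* carried none of the 4 in the bases printed. *NDUFA9* and *NDUFA6* held the YY1 letters in the 50 bases after the start, which are not printed. The matches describe sequence and were not tested for binding.

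The first question was how the nuclear and mitochondrial parts moved over time. The 85 nuclear genes together held a nearly constant share of all TPM, whereas the share of the 13 mitochondrial genes moved widely and differed between differentiations. Over the 47 libraries the nuclear share ran from 1.25% to 1.79%, a 1.43-fold range, and the mitochondrial share ran from 2.04% to 9.68%, a 4.74-fold range. The ratio of the mitochondrial to the nuclear share was lowest in the t0 library of differentiation 1 (1.14) and highest in the P1 library of differentiation 3 (6.09).

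The nuclear share at t0 was 1.79%, 1.69% and 1.62% in differentiations 1, 2 and 3 (1.70% ± 0.084, SD, n = 3). At 36 h it was 1.61%, 1.63% and 1.59% (1.61% ± 0.021, SD, n = 3), and the t0 library of differentiation 3 lay within the range of these NMP-like libraries. It was 1.54% ± 0.094 (SD, n = 3) at P5, 1.49% ± 0.021 (SD, n = 3) at P8 and 1.44% ± 0.054 (SD, n = 3) at P10. The libraries of P8 and P10 thus all lay below those of t0. The lowest share, 1.25%, was in the P9 library of differentiation 1, which was also the lowest of the 47 libraries for each of the nuclear parts of complexes II, III, IV and V.

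The mitochondrial share at t0 was 2.04%, 6.41% and 8.27% (5.58% ± 3.20, SD, n = 3). At 36 h it was 6.66%, 9.68% and 9.16% (8.50% ± 1.61, SD, n = 3), higher than at t0 in each differentiation, although the groups overlapped. At P5 the shares were 7.86%, 4.67% and 4.26% (5.60% ± 1.97, SD, n = 3), with differentiation 1 high and the others low. At P8 they were 4.31%, 8.16% and 6.07% (6.18% ± 1.93, SD, n = 3), with differentiation 1 now lowest. At P10 they were 7.36%, 4.45% and 3.19% (5.00% ± 2.14, SD, n = 3), with differentiation 1 again highest. The passage with the closest values was P6, at 4.87%, 4.92% and 4.37%. The 2 ribosomal RNAs of the mitochondrial genome, *MT-RNR1* and *MT-RNR2*, together took 0.221% to 1.35% of TPM, and their lowest and highest libraries were those of the mitochondrial protein genes, t0 of differentiation 1 and 36 h of differentiation 2. At t0, where the share of differentiation 1 was lowest, *POU5F1* was at 1749, 1569 and 1590 TPM in the 3 differentiations. Markers of cell state differed between the differentiations at later time points, and their part in these shares was not tested.

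**Figure D1:**
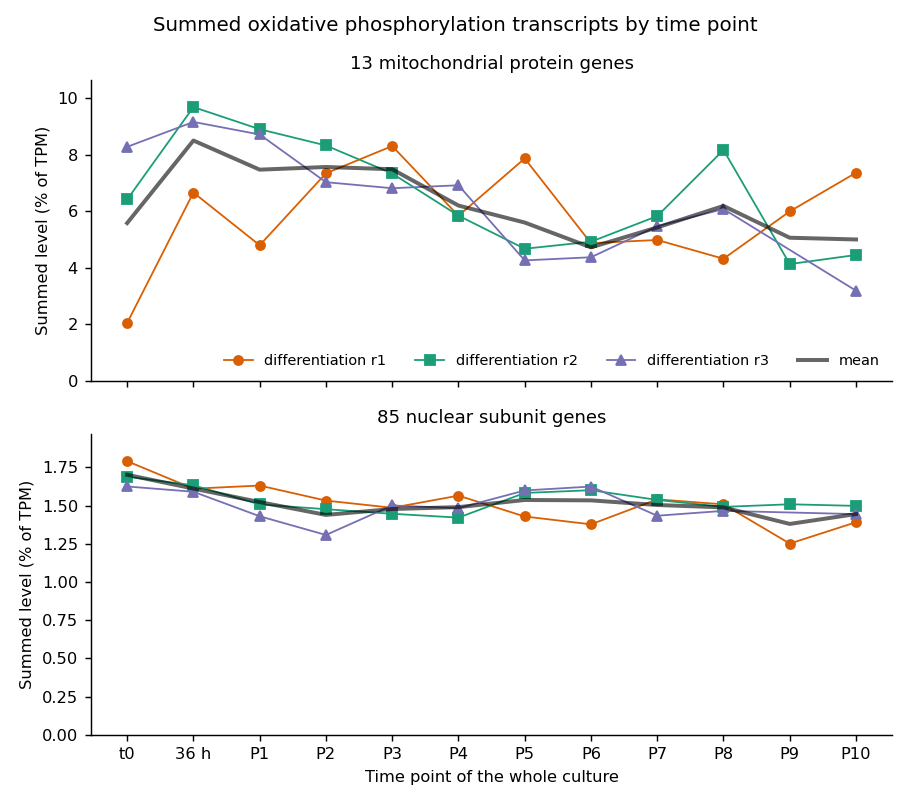
Summed share of all TPM (percent) of the 13 mitochondrial genes and of the 85 nuclear genes at each time point, with 1 line per differentiation and the mean in black. The nuclear share stayed between 1.25% and 1.79%, while the mitochondrial share ran from 2.04% to 9.68% and its lines crossed; the line of differentiation 3 joins P8 to P10.

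In each differentiation most mitochondrial genes had a higher level in NMP-like cells than in hESCs, by differing amounts, and in the later comparisons differentiation 1 had the opposite direction to the others. From t0 to 36 h all 13 were higher in the normalized counts of differentiations 1 and 2 (median log2 change 1.63 and 0.58), and 10 of the 13 were higher in differentiation 3 (median 0.15). *MT-CO1*, the catalytic core of cytochrome c oxidase, had 2414, 9031 and 9907 TPM at t0 and 10165, 11163 and 12177 TPM at 36 h. Every 36 h library was above every t0 library for this gene, and the t0 library of differentiation 1 was far below the other two. *MT-ND6* had 61.4, 264 and 370 TPM at t0 and 382, 515 and 435 TPM at 36 h. *MT-ND3*, a small membrane subunit of complex I, had 1319, 2456 and 3314 TPM at t0 and 1622, 3240 and 3089 TPM at 36 h, with overlapping groups. The fitted log2 change was positive for all 13 genes, from 0.16 for *MT-ND3* to 0.92 (SE 0.44, adjusted p = 0.191) for *MT-ND6*, with a median of 0.61 against 0.004 over all genes. edgeR called none of the 13 in this comparison, in which 12.3% of all 21764 tested genes were called. Of the 13, 1 had an unadjusted p under 0.05, against 5676 of all 21764 genes, and DESeq2 also called 0. Without differentiation 1 the largest log2 change was 0.58 (*MT-ND6*), and 0 were called.

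From 36 h to P5 all 13 genes were lower in differentiations 2 and 3 (median log2 change -1.16 and -1.26), whereas 11 of the 13 were higher in differentiation 1 (median 0.37). *MT-CO1* had 11103, 5746 and 4916 TPM at P5. *MT-ND4*, a proton-pumping subunit of complex I, had 7980, 8921 and 9196 TPM at 36 h and 7266, 3764 and 3335 TPM at P5. For both genes the P5 library of differentiation 1 was close to the 36 h libraries, and the others lay well below them. *MT-ND4* had the largest fitted fall of the 13, with a log2 change of -0.98 (SE 0.41, adjusted p = 0.066), and *MT-ND6* the smallest, -0.27 (SE 0.44, adjusted p = 0.68). The median was -0.67, against -0.01 over all genes. edgeR called 0 of the 13 where it called 32.9% of all genes. Of the 13, 3 had an unadjusted p under 0.05, against 9272 of all 21764 genes. DESeq2 called 2, with 35.1% of all genes called. Differentiation 1 had the opposite direction here and in the later time comparisons, so the fits without it are no separate evidence of a change. Over the fits that left out each differentiation in turn, 0 to 13 of the 13 were called. Without differentiation 1 all 13 were called lower, with log2 changes from -1.52 (*MT-ND4*) to -0.74 (*MT-ND3*) and adjusted p from 1.5e-05 to 0.010, and 30.5% of all genes were called in that fit.

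Between later passages the direction turned with the differentiation. From P5 to P8 all 13 mitochondrial genes were lower in differentiation 1 (median log2 change -0.86) and all 13 were higher in differentiations 2 and 3 (median 0.96 and 0.51). *MT-CO1* had 5604, 11109 and 8302 TPM at P8, so that differentiation 1, the highest at P5, was now the lowest. edgeR called 0 of the 13 (median 0.14), with 0.262% of all genes called. Of the 13, 0 had an unadjusted p under 0.05, against 2892 of all 21764 genes, and DESeq2 called 0. Without differentiation 1, 7 of the 13 were called higher with log2 changes up to 0.96 (*MT-ND5*), where 6.35% of all genes were called. Without differentiation 2 the median was -0.28.

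From P8 to P9 and P10 as 1 group, all 13 genes were higher in differentiation 1 (median log2 change 0.62) and all 13 were lower in differentiations 2 and 3 (median -1.01 and -0.91). *MT-CO1* had 10022 and 5039 TPM at P9 in differentiations 1 and 2, and 10429, 5639 and 4388 TPM at P10. edgeR again called 0 of the 13 (median -0.25), with 10.4% of all genes called. Of the 13, 0 had an unadjusted p under 0.05, against 5711 of all 21764 genes, and DESeq2 called 0. Without the P10 library of differentiation 1 alone the median was -0.45 and 0 of the 13 were called, with 20.8% of all genes called. Without differentiation 1, 11 of the 13 were called lower, with 19.3% of all genes called. Among these 11, *MT-ND1*, a membrane subunit of complex I, had a log2 change of -1.05 (SE 0.17, adjusted p = 0.0012). Without differentiation 2 the median was 0.16.

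A test for any difference over the 12 time points gave the same split. With all differentiations edgeR called 0 of the 13 mitochondrial genes (adjusted p from 0.116 to 0.633) and 68.7% of all genes. None had an unadjusted p under 0.05, against 15595 of all 21764 genes, while DESeq2 called 2 and 73.3% of all genes. Without differentiation 1 all 13 were called, at adjusted p up to 0.0094, with 69.8% of all genes called. Leaving out the P10 library of differentiation 1 alone left 1 of the 13 called, against 71.1% of all genes. Differentiation 1 was the one with the opposite direction above, so the fit without it is no separate evidence of a difference.

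Among the nuclear genes, few changed as the cells became NMP-like. From t0 to 36 h, 6 of the 79 tested nuclear genes were called, 3 higher and 3 lower (7.59%), against 12.3% of all genes, of which 6.28% were higher and 6.04% lower. The median log2 change was -0.05, and 30 of the 79 were positive. *COX7C* fell first: it had 1148, 1148 and 1117 TPM at t0 and 705, 759 and 729 TPM at 36 h, a 1.60-fold fall (log2 change -0.68, SE 0.11, adjusted p = 0.00019). All 3 hESC libraries stood above all NMP-like libraries, and from P1 to P10 *COX7C* stayed lower still, at 434 to 630 TPM. *NDUFB10*, an accessory subunit of complex I, fell from 180, 164 and 158 TPM to 122, 140 and 126 TPM (log2 change -0.39, SE 0.10, adjusted p = 0.011). *COX6B2* had 4.0, 7.2 and 5.7 TPM at t0 and 1.4, 0.4 and 0.6 TPM at 36 h. Its mean fell from 173 to 29.1 normalized counts (log2 change -2.63, SE 0.72, adjusted p = 0.017), and it did not exceed 1.0 TPM later.

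*ATP5PD* rose at 36 h before it fell. It had 343, 317 and 321 TPM at t0 and 382, 424 and 482 TPM at 36 h (log2 change 0.38, SE 0.10, adjusted p = 0.0097), and the groups did not overlap. *NDUFS4*, a complex I subunit whose loss causes Leigh syndrome, rose from 92.5, 82.3 and 82.8 TPM to 120, 106 and 111 TPM (log2 change 0.38, SE 0.10, adjusted p = 0.017). *UQCRC2*, a core protein of complex III, rose from 182, 173 and 155 TPM to 216, 188 and 189 TPM (log2 change 0.21, SE 0.07, adjusted p = 0.046). Leaving out differentiation 2 or differentiation 3 left 1 of the 79 called, against 1.78% and 1.93% of all genes.

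The comparison of P5 with 36 h held most of the nuclear changes: 27 of the 79 genes were called, 6 higher and 21 lower. This was 34.2% of the nuclear genes, against 32.9% of all genes, and the split was 7.59% higher and 26.6% lower, against 15.8% and 17.2% of all genes. The median log2 change was -0.13, against -0.01 over all genes, and 24 of the 79 were positive. Complex I had 4 higher and 4 lower of 37, complex II 0 and 2 of 4, complex III 0 and 5 of 9, complex IV 0 and 5 of 12, and complex V 2 and 5 of 17. Leaving out differentiation 2 left 7 of the 79 called, against 14.3% of all genes, leaving out differentiation 3 left 11, against 17.6%, and leaving out differentiation 1 left 25, against 30.5%.

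With *COX6B2* set aside, *ATP5PD* had the largest log2 fall of the 21. After 382, 424 and 482 TPM at 36 h it was at 235, 234 and 245 TPM at P1, and it ranged from 189 to 248 TPM over the 29 libraries of P1 to P10. The 36 h libraries thus all stood well above every later library. From 36 h to P5 it fell 2.05-fold (log2 change -1.03, SE 0.10, adjusted p = 6.7e-08). Its gene lies at chr17:75038863-75046985 on the minus strand (GRCh38, GENCODE 29).

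Complexes II and III held 7 of the 21 genes that fell, *UQCRHL* included. *SDHD* (chr11:112086773-112120013) had 95.2, 88.2 and 80.6 TPM at 36 h, and it was at 94.1, 71.7 and 60.3 TPM at P1 and 66.8, 49.8 and 43.0 TPM at P2. Differentiation 1 was the last to fall. At P5 it had 53.6, 59.7 and 55.6 TPM, a 1.72-fold fall from 36 h (log2 change -0.79, SE 0.15, adjusted p = 0.00035). *SDHB*, the iron-sulfur subunit of the same enzyme, had 139, 107 and 98.5 TPM at 36 h and 74.9, 86.4 and 96.7 TPM at P5, close together in differentiation 3 (log2 change -0.56, adjusted p = 0.045), whereas the catalytic subunit *SDHA* was not called (log2 change 0.24, adjusted p = 0.25). Numbered pseudogenes held 18.5% of the TPM summed with *SDHA*, so its level is uncertain.

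*UQCRH* (chr1:46303631-46316776) had 458, 523 and 468 TPM at 36 h, 435, 415 and 391 TPM at P1 and 315, 339 and 337 TPM at P5 (log2 change -0.66, SE 0.13, adjusted p = 0.00029). Its near-identical copy *UQCRHL* was called as well (log2 change -0.76), and reads of the pair may have been divided between them. *UQCRC2* fell to 157, 154 and 142 TPM, below all its 36 h libraries (log2 change -0.53). *UQCRB*, which binds ubiquinone in complex III, and the Rieske iron-sulfur protein *UQCRFS1* had log2 changes of -0.28 and -0.35, and pseudogenes held 16.6% of the TPM summed with *UQCRFS1*.

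In complex IV, *COX7C* (chr5:86617904-86620962) went down again to 551, 535 and 590 TPM at P5 (log2 change -0.50, SE 0.11, adjusted p = 0.0011). *COX4I1*, *COX5B* and *COX7A2L* fell with log2 changes of -0.47, -0.52 and -0.43, and *COX6B2* reached a mean of 2.68 normalized counts, too low for a fold change. *COX5A* was not called (log2 change -0.37, adjusted p = 0.078). In complex V the catalytic subunits *ATP5F1A* and *ATP5F1B* and the shaft subunit *ATP5F1C* fell slightly, with log2 changes of -0.33, -0.27 and -0.34. *ATP5ME*, a membrane subunit, had -0.60 with overlapping groups. In complex I, *NDUFB4*, *NDUFA3*, *NDUFS4* and *NDUFB5* fell (-0.54, -0.51, -0.36 and -0.35). The catalytic core subunits *NDUFS1* (0.03, adjusted p = 0.81) and *NDUFV1* (-0.03, adjusted p = 0.83), which carry electrons from NADH, were not called.

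The 6 nuclear genes that rose at P5 belonged to complexes I and V. *NDUFA6* (chr22:42085525-42090955, minus strand) had 133, 142 and 145 TPM at 36 h and 224, 211 and 233 TPM at P5, a 1.67-fold rise (log2 change 0.74, SE 0.16, adjusted p = 0.00086). It was between 157 and 202 TPM at P9 and P10, and the P7 library of differentiation 3 was back at 136 TPM. *NDUFA9* (chr12:4649095-4694317) rose from 74.1, 86.9 and 72.9 TPM to 112, 121 and 122 TPM (log2 change 0.52, SE 0.15, adjusted p = 0.011). In both genes every P5 library was above every 36 h library.

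*ATP5F1E* (chr20:59025467-59032382, minus strand) differed between the differentiations. It had 57.4, 54.5 and 54.4 TPM at t0, 42.8, 68.2 and 68.7 TPM at 36 h, 47.5, 103 and 99.7 TPM at P1 and 74.5, 106 and 111 TPM at P5. Differentiation 1 was the lowest from 36 h on in each of these groups, and the log2 change from 36 h to P5 was 0.54 (SE 0.14, adjusted p = 0.0044). *NDUFB11*, a complex I subunit encoded on the X chromosome, went from 67.1, 62.6 and 72.2 TPM to 85.4, 98.1 and 103 TPM (log2 change 0.41, SE 0.10, adjusted p = 0.0022). *ATP5MPL* and *NDUFC2* rose by less, with log2 changes of 0.30 and 0.25. Of these genes, *NDUFA6* was called in every fit that left out 1 differentiation. *ATP5F1E* and *NDUFB11* lost the call without differentiation 2, and *NDUFA9* and *ATP5MPL* lost it without differentiation 2 or 3. Of the genes that fell, *ATP5PD*, *SDHD* and *COX4I1* were called in each of these fits. *UQCRH* lost the call without differentiation 2, *SDHB*, *UQCRHL* and *ATP5F1A* without differentiation 2 or 3, *COX6B2* without differentiation 1, and *UQCRFS1* and *ATP5F1B* without any 1 of the 3. For the other named genes that fell, and for *NDUFC2*, the outcome in these fits is not given. Fewer nuclear genes were called without differentiation 2 or 3, as stated above.

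**Figure D2:**
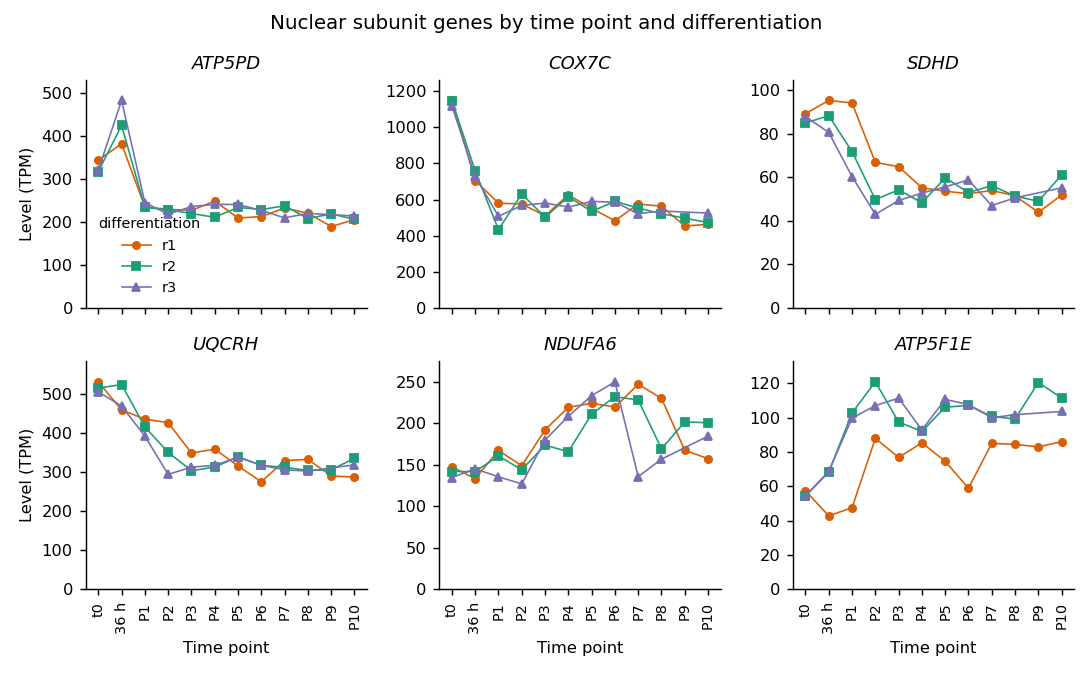
Level in TPM of named nuclear genes at each time point, with 1 line per differentiation. *COX7C* dropped from over 1100 TPM at t0 to 705 to 759 TPM at 36 h, *ATP5PD* dropped from 382 to 482 TPM at 36 h to 234 to 245 TPM at P1, and *NDUFA6* rose to 211 to 233 TPM at P5.

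**Figure D3:**
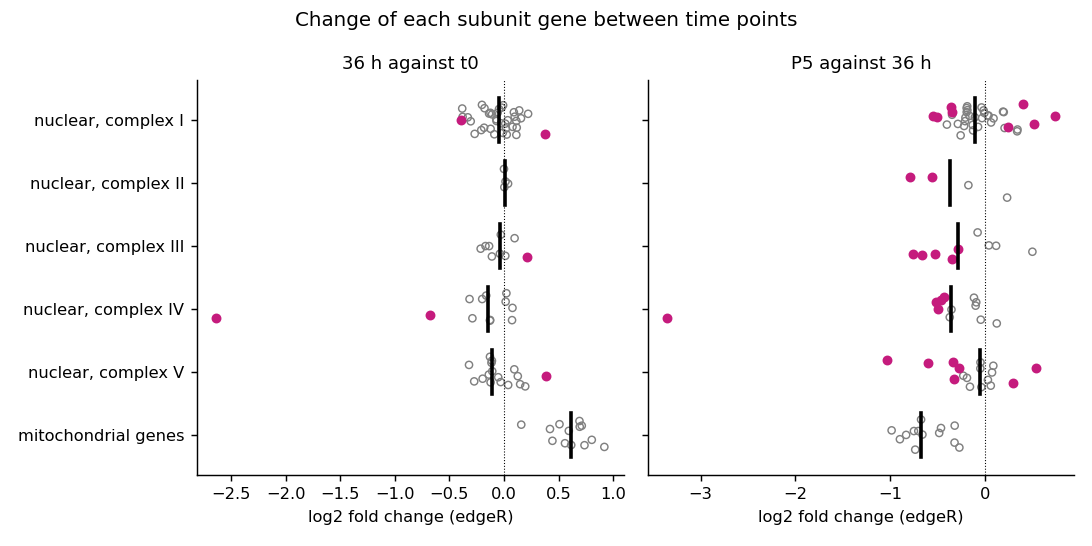
Log2 fold change of each tested subunit gene by complex and genome; filled magenta points passed an adjusted p of 0.05, open grey points did not, and black bars are medians. In P5 against 36 h the filled nuclear points are 6 above and 21 below 0, while none of the 13 mitochondrial points is filled in a fit of all differentiations.

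Between later passages few genes of any kind were called at first. From P5 to P8 edgeR called 0.262% of all genes and 0 of the 79 nuclear genes, and DESeq2 called 0 of the 79. An unadjusted p under 0.05 was found for 1 of the 79, against 2892 of all 21764 genes. From P8 to P9 and P10 together 1 of the 79 was called (1.27%), against 10.4% of all genes. This was *ATP5MC2*, which had 353, 319 and 360 TPM at P8, 309 and 264 TPM at P9 and 304, 296 and 265 TPM at P10 (log2 change -0.25, SE 0.07, adjusted p = 0.032). The call for *ATP5MC2* was kept without differentiation 1 (adjusted p = 0.017) and lost without differentiation 2 (adjusted p = 0.33) or 3 (adjusted p = 0.31). Without differentiation 1, 7 of the 79 nuclear genes were called, against 19.3% of all genes, and without its P10 library alone 5, against 20.8%. Without differentiation 2 or 3 edgeR called 0 of the 79, and it called 0.022% and 0.0% of all genes.

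Over all 12 time points 45 of the 79 nuclear genes (57.0%) differed, against 68.7% of all genes. They were 18 genes of complex I, 3 of complex II, 6 of complex III, 6 of complex IV and 12 of complex V. The smallest adjusted p belonged to *ATP5PD* (2.0e-09) and *COX7C* (3.3e-09). Without differentiation 1 the count was 56, against 69.8% of all genes, without differentiation 2 it was 14, against 32.6%, and without differentiation 3 it was 20, against 42.1%. By mean level, 34 of 78 nuclear genes whose mean reached 100 normalized counts were highest at t0, 15 at P1 and 12 at 36 h, and 9 of the 13 mitochondrial genes were highest at 36 h. The same counts over all genes are not given, so nothing particular to the subunits is read from these.

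The spread between differentiations separated the parts of the 2 genomes. Among genes whose mean reached 100 normalized counts, the median SD of log2 values within a time point was 0.168 for 78 nuclear subunit genes, 0.512 for the 13 mitochondrial genes and 0.256 for all 13376 genes. The range of the time point means had a median of 0.52 for the nuclear genes, 1.00 for the mitochondrial genes and 1.03 for all genes. A range of at least 1 was reached by 7 of the 78 nuclear genes (8.97%), 7 of the 13 mitochondrial genes (53.8%) and 51.6% of all genes. *COX7C* combined a range of 1.38 with an SD of 0.12, and *ATP5PD* a range of 1.14 with an SD of 0.11. *MT-ND4* had a range of 1.25 with an SD of 0.53.

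**Figure D4:**
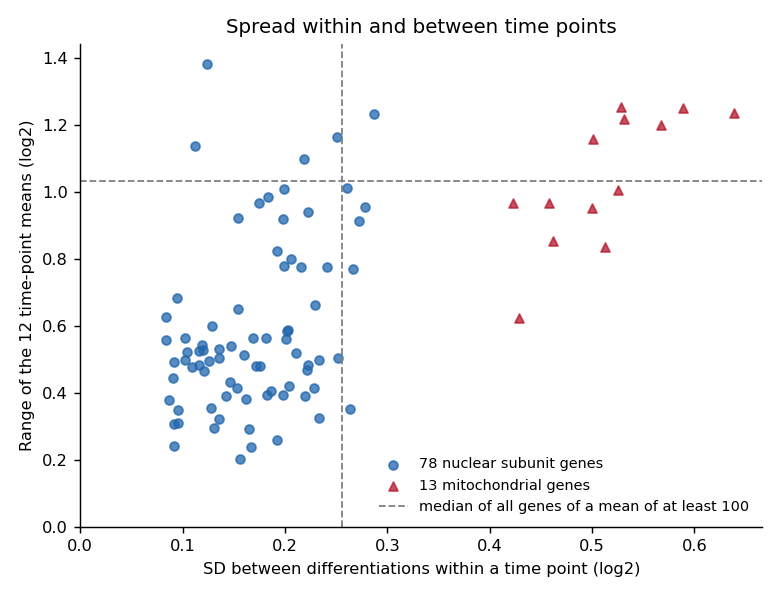
Range of the 12 time point means (vertical axis, log2 units) against the SD between differentiations within a time point (horizontal axis, log2 units) for each subunit gene whose mean reached 100 normalized counts; dashed lines are the medians of all such genes. The nuclear genes lie mostly below both lines (median range 0.52, median SD 0.168), the mitochondrial genes at a median SD of 0.512, and *COX7C* and *ATP5PD* at a large range with a small spread.

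Across the 35 whole-culture libraries the mitochondrial genes varied together. Pairs among the 13 had a median correlation of 0.908 (from 0.625 to 0.983, 78 pairs), and pairs of nuclear genes had a median of 0.358 (3003 pairs). The summed shares of the 2 parts had a correlation of -0.27. These correlations are across libraries that share time points and differentiations and are given as a description, and both shares are parts of the same total.

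The second question was whether the parts differed between the mesenchymal and epithelial fractions. The mitochondrial share was lower in MES than in the paired EPI library in 6 of 6 pairs, by varying amounts, and the nuclear share was nearly equal. The 6 pairs come from 3 differentiations, each sampled at P5 and P8, so they are not 6 independent units. At P5 the mitochondrial share was 6.35%, 4.49% and 4.36% in EPI and 5.90%, 3.17% and 3.93% in MES. At P8 it was 8.04%, 7.19% and 4.51% in EPI and 5.90%, 4.68% and 4.01% in MES. The groups overlapped at both passages. The log2 ratio of MES to EPI within pairs was -0.11, -0.50 and -0.15 at P5 and -0.45, -0.62 and -0.17 at P8. For the nuclear share it was 0.01, -0.02 and -0.05 at P5 and 0.00, 0.07 and -0.08 at P8. The mitochondrial ribosomal RNAs did not follow the protein genes: their summed share was 0.603%, 0.360% and 0.437% in EPI and 0.822%, 0.330% and 0.417% in MES at P5, and 0.670%, 0.644% and 0.512% in EPI and 0.779%, 0.611% and 0.578% in MES at P8, higher in MES in 3 of 6 pairs.

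**Figure D5:**
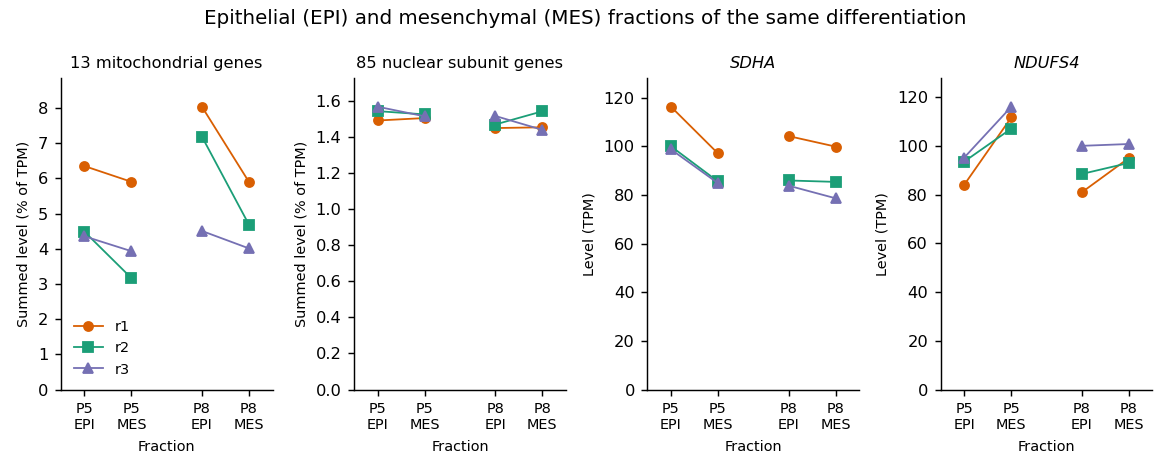
Mitochondrial and nuclear shares of TPM (percent) and levels in TPM of *SDHA* and *NDUFS4* in the paired EPI and MES libraries of P5 and P8, with 1 line per differentiation. Each mitochondrial line falls from EPI to MES, most in differentiation 2 (4.49% to 3.17% at P5, 7.19% to 4.68% at P8), while the nuclear lines are nearly level; at P5 *SDHA* falls and *NDUFS4* rises in all 3.

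By gene, the mitochondrial differences between fractions did not pass the test. At P5 the median log2 difference of MES from EPI was -0.19 and 0 of the 13 were called, where edgeR called 7.89% of all 18886 genes. Of the 13, 0 had an unadjusted p under 0.05, against 4894 of all genes, and DESeq2 called 0. At P8 the median was -0.42 and 12 of the 13 genes were lower in MES in all 3 pairs, with *MT-ND6* the exception. The share of all genes that were lower in all 3 pairs is not given. The mitochondrial genes also varied together across the whole cultures, so these are not 12 separate observations. *MT-ATP8*, a small subunit of ATP synthase, had 8095, 7103 and 4562 TPM in EPI and 4633, 4258 and 3373 TPM in MES, a log2 difference of -0.69 (SE 0.18, adjusted p = 0.28). *MT-ATP6* had 10295, 9567 and 6322 TPM in EPI and 7181, 5666 and 4662 TPM in MES (log2 difference -0.61, SE 0.15, adjusted p = 0.27). The coding regions of these neighbours overlap, so reads may be divided between them, and the nuclear pseudogene *MTATP6P1* held 11.9% to 13.4% of its TPM summed with *MT-ATP6*. edgeR called 0.0% of all genes at P8, although 2262 genes, 8 of the 13 mitochondrial genes among them, had an unadjusted p under 0.05. DESeq2 called 2 of the 13, with 2.01% of all genes called.

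Among the 78 nuclear genes tested in the fractions, 2 were called at P5 (2.56%), against 7.89% of all genes. DESeq2 called 7 of the 78, against 15.6% of all genes, and a fit of the P5 fractions only called 6, against 21.3%. *SDHA* was lower in MES, with 97.1, 85.6 and 84.8 TPM, than in EPI, with 116, 100 and 98.8 TPM (log2 difference -0.27, SE 0.05, adjusted p = 0.024). *NDUFS4* was higher in MES, with 112, 107 and 116 TPM, than in EPI, with 84.1, 93.6 and 95.2 TPM (log2 difference 0.34, SE 0.08, adjusted p = 0.036). In both genes the fractions did not overlap, but leaving out any 1 of the differentiations ended both calls and left 0 of the 78, in fits that called 1.1%, 0.0% and 0.0% of all genes without differentiation 1, 2 and 3. At P8 the differences were -0.07 for *SDHA* (adjusted p = 0.61) and 0.08 for *NDUFS4* (adjusted p = 0.72). edgeR called 0 of the 78 at P8, 5 had an unadjusted p under 0.05, against 2262 of all 18886 genes, and DESeq2 called 0. A test of whether the fraction difference changed between P5 and P8 called 0.0% of all genes. In that test 4 of the 78 nuclear genes and 0 of the 13 mitochondrial genes had an unadjusted p under 0.05, against 1153 of all 18886 genes. DESeq2 called 0 of these nuclear and mitochondrial genes. The pre-neural markers, summed, were 466 to 750 TPM in P5 EPI and 87.4 to 261 TPM in P5 MES, so cell makeup moved with the fraction, and its part in the *SDHA* and *NDUFS4* differences was not tested.

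Genes that build, supply or regulate the complexes were followed as related lists, read against the 12.3% and 32.9% of all genes called in the first comparisons. From t0 to 36 h, 2 of 54 assembly factors rose and 3 fell: *BCS1L* (log2 change 0.59), which inserts the Rieske protein, and *ACAD9* (0.39), a complex I assembly factor, rose, and *NDUFAF7* (-0.71), the ATP synthase inhibitor *ATP5IF1* (-0.48) and *COX20* (-0.44) fell. Among 28 genes for transcription and RNA handling of the mitochondrial genome only *POLRMT*, the mitochondrial RNA polymerase, was called (-0.50). *MYC* (-2.20) and *YY1* (-0.25) fell among 15 regulators, and *SUCLG1* (0.57) and *FH* (0.39) rose among 14 genes of the tricarboxylic acid cycle.

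From 36 h to P5, 4 of 54 assembly factors rose, led by *NDUFAF3* (0.74), *ACAD9* (0.53) and *COX20* (0.50), and 9 fell, led by *SDHAF4* (-0.98), an assembly factor of complex II, *NDUFAF7* (-0.91) and *PET117* (-0.62), with a median of -0.09 over the list. Of the 28 genes for mitochondrial transcription and RNA handling, *HSD17B10* rose (0.29) and 7 fell, and the median log2 change of the list was -0.25, against -0.01 over all genes. The largest falls were those of *TFB1M* (-0.82), *FASTKD1* (-0.78) and *LRPPRC* (-0.69), and *LRPPRC* stabilises mitochondrial messages together with *SLIRP* (-0.61). Of the regulators, *GABPB1* rose (0.41), and *PPARGC1B* (-2.44), a coactivator of mitochondrial biogenesis, *ESRRA* (-0.70) and *HIF1A* (-0.54) fell. *DLST* (-0.49), *MDH2* (-0.32) and *DLD* (-0.29) fell among the genes of the tricarboxylic acid cycle. *UCP3* rose (1.25) and *UCP2* (-0.66) and *ETFDH* (-0.37) fell among 8 carriers and uncouplers.

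From P8 to P9 and P10 together, where 10.4% of all genes were called, 2 of 54 assembly factors, 1 of 28 genes for mitochondrial transcription and RNA handling, 2 of 15 regulators and 1 of 8 carriers and uncouplers were called. The assembly factors *ATPAF1* (-0.68) and *FOXRED1* (-0.38), the mitochondrial transcription termination factor *MTERF1* (-0.39) and the RNA-binding regulators *LIN28A* (-5.34) and *LIN28B* (-1.06) fell, and *ETFDH* (0.40), which passes electrons to ubiquinone, rose. With differentiations 1 and 2 alone edgeR called 0.0% of all genes in this comparison, so all of these calls were lost there. It called 0.022% of all genes without differentiation 2 and 19.3% without differentiation 1. The lists were not counted in those fits. In the P5 fractions, where 7.89% of all genes were called, 1 of the 54 assembly factors and 1 of the 8 carriers and uncouplers were called. *LYRM7* (0.36), a complex III assembly factor, was higher in MES and *UCP2* (-0.88) was lower. Both calls were lost without differentiation 2, with differentiations 1 and 2 alone and without the replicate block. Each of those fits called 0.0% of all genes. Without differentiation 1 edgeR called 1.1% of all genes, and the outcome for *LYRM7* and *UCP2* in that fit is not given.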

How the data were processed

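Bulk poly(A) RNA-seq of 47 libraries was analysed. Per the labels, the authors trimmed reads with cutadapt 1.16, aligned them with STAR 2.5.2b and quantified genes with RSEM 1.3.0 on GRCh38; the annotation release and strand setting are not given in the sources used here. The deposited files hold expected counts, which RSEM estimates by dividing reads that fit several genes (9.33% of values were not whole), and TPM, which the authors' RSEM run corrected for transcript length and scaled to the same total in every library. Symbols were taken from GENCODE 29, and 57447 of 58051 gene IDs had one.

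Expected counts were rounded and tested with edgeR 4.0.16 (limma 3.58.1, R 4.3.3): filterByExpr by group, TMM normalization, a quasi-likelihood fit and Benjamini-Hochberg adjustment over all genes tested. One fit took the 35 whole cultures (21764 genes, 21 residual degrees of freedom, biological coefficient of variation 34.0%), and another the 12 fraction libraries (18886 genes, 6 residual degrees of freedom, 22.8%). Both held the differentiation as a block, because the series' design text says that each experiment ran through all time points. The deviations of same-numbered libraries from their group means were checked over 13293 genes: they had a mean correlation of 0.649 between P5 EPI and MES, 0.777 between P8 EPI and MES, 0.307 between P5 and P8 and -0.007 between t0 and 36 h. Normalized counts are counts divided by TMM size factors over all libraries. The p-values rest on the spread between differentiations of 1 cell line that is left after the block. Differences that a differentiation kept in all groups of a fit are removed by the block. The fits were tested on simulated data, in which most changes of the smallest size simulated were not called, so a gene that was not called is not shown to be unchanged. Alternatives were other scalings, no filter on low counts, no block, the compared libraries only, DESeq2 1.42.0, the thresholds of the study (FDR under 1%, at least 2-fold, mean of 100 or more normalized counts) and leaving out each differentiation. Named genes were the mitochondrial genes, up to 5 called nuclear genes per direction and comparison, paralogue pairs, core catalytic subunits and up to 3 called genes per direction of each related list; genes beyond this rule were chosen after their values were seen. The members and lists were chosen with earlier results of these data known. Promoters and their build come from RefSeq. Protein sequences were not used here.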

Additional observations from a re-analysis of the deposited data

Results flagged for a closer look

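For 4 of the 78 nuclear genes tested (5.13%) the difference between MES and EPI had one sign in all 3 differentiations at P5 and the opposite sign in all 3 at P8. Of all 18886 genes tested in the fractions, 483 (2.56%) had such a turn of sign, and of the 13 mitochondrial genes 0. The turn of sign itself was not tested, and nothing particular to these genes is read from it. The mean log2 ratio of MES to EPI of *NDUFS1* was 0.043 at P5 and -0.056 at P8, that of *NDUFV3* 0.15 and -0.11, and that of *ATP5MG* 0.081 and -0.14. *NDUFS7* went the other way, from -0.074 at P5 to 0.16 at P8. In the edgeR fit the change of the fraction difference between passages had an adjusted p of 0.815 for *NDUFV3*, 0.852 for *NDUFS1* and *NDUFS7*, and 0.889 for *ATP5MG*.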

How the results depend on the processing

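Of 217 checks on 24 named changes of nuclear genes, 149 kept the call, 68 lost it and none changed direction. The median log2 change of the mitochondrial genes, none of which was called, did change sign: between P5 and P8 it was 0.14, and -0.28 without differentiation 2 and -0.016 without differentiation 3, and between P8 and P9 with P10 it was -0.25, and 0.16 without differentiation 2. Nuclear genes called between t0 and 36 h numbered 6, and 3 without a count filter (5.25% of all genes called), 2 in a fit of the compared libraries only (11.2%), 0 under the thresholds of the study and 1 to 5 when a differentiation was left out (1.78% to 17.0%). Between 36 h and P5 the thresholds of the study left 1 of 27 nuclear genes, and leaving out a differentiation gave 7 to 25 (14.3% to 30.5%); for the mitochondrial genes DESeq2 gave 2 and leaving out a differentiation gave 0 to 13. Between P5 and P8, leaving out a differentiation gave 0 to 1 nuclear and 0 to 7 mitochondrial genes (0.0% to 6.35%). Between P8 and P9 with P10 the 1 nuclear call became 2 with scaling on nuclear genes (10.1%) or with DESeq2 (14.6%), 0 without a filter (3.83%), in the compared libraries only (0.0%) or under the thresholds of the study, 0 to 7 when a differentiation was left out (0.0% to 19.3%) and 5 without the P10 library of differentiation 1; the mitochondrial count ran from 0 to 11. Over all time points the thresholds of the study left 6 of 45 nuclear genes and leaving out a differentiation gave 14 to 56 (32.6% to 69.8%); for the mitochondrial genes DESeq2 gave 2, leaving out a differentiation 0 to 13, and leaving out the P10 library of differentiation 1, an alternative chosen after seeing the data, 1. In the P5 fractions the 2 nuclear calls became 4 with DESeq2 size factors (7.80%) or with scaling on nuclear genes (7.87%), 6 in the compared libraries only (21.3%), 7 with DESeq2 (15.6%), 0 without a filter (3.49%) or under the thresholds of the study, and 0 to 0 when a differentiation was left out (0.0% to 1.1%); in the P8 fractions DESeq2 called 2 mitochondrial genes. Without the replicate block the nuclear counts were 5 between t0 and 36 h, 23 between 36 h and P5, 44 over all time points and 0 in the P5 fractions, where 9.95%, 29.9%, 65.2% and 0.0% of all genes were called. As shares of expected counts, which are not corrected for length, the mitochondrial genes took 4.11% at 36 h, 2.54% at P5, 2.86% at P8 and 2.22% at P10, and the nuclear genes 0.721% at t0, 0.695% at 36 h, 0.620% at P5, 0.600% at P8 and 0.561% at P10. Counts under the thresholds of the study are given without the share of all genes called, so they cannot be compared with it. Leaving out libraries also leaves fewer degrees of freedom. Otherwise the cause of these changes was not tested.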
